A study of Drosophila melanogaster and Drosophila simulans and Drosophila yakuba with 12 samples.

Results

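Male Drosophila yakuba (strain 14021-0261.00) were compared at the onset of metamorphosis, white prepupae against larvae late in the third instar, by sequencing the small RNA of whole bodies. Prepupae were taken within 1 h of puparium formation, when the larval skin hardens into a case, and larvae were wandering animals with a dark blue gut, staged by dyed food at 18 h or more before it. The comparison was defined by the sample labels and took in 3 of the 12 libraries of the series and 2 of its 10 RNA samples. The prepupal RNA had been prepared as 2 libraries. Prepupal library 1 carried the index CGAT in pool SDY3, and prepupal library 2 carried the index TGAC in pool SDY4. The larval library, from 1 RNA, carried the index CGAT in pool SDY4. Prepupal library 1 therefore shared its 4-nt index with the larva and prepupal library 2 shared its pool. All groups were grown on corn meal medium in constant light, and how many animals went into each RNA is not given in the labels. The study also holds males of D. simulans (strain 14021-0251.167) and both sexes of D. melanogaster (strain Oregon-R), prepupae and larvae alike, of which the males are used below.

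microRNAs (miRNAs) are cut from hairpin precursors as 2 arms, 5p and 3p, and one arm usually stays bound to an Argonaute protein, where bases 2 to 8, the seed, select target mRNAs. In flies, the moulting hormone ecdysone starts metamorphosis, and the let-7 complex, a locus that encodes miR-100, let-7 and miR-125 together, is known to be switched on around that time and to shape the remodelling of muscle and nervous system. miR-14 and miR-8 are also tied to steroid and insulin signalling in D. melanogaster, and some other abundant miRNAs mark particular tissues, such as miR-1 in muscle.

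The sequences that carry the comparison are given here as the most-read form of each arm in the 3 libraries, 5′ to 3′, with the seed in capitals. Sequences of let-7-5p and miR-125-3p are shown because neither was read in larvae, miR-10-3p because it was the most abundant arm that was lower in both prepupal libraries, and miR-305-3p because it was the one arm past the 2-fold rule on the higher side. Further down, miR-1-3p, miR-263a-5p and bantam-3p separated the prepupal libraries, miR-33-5p was lower in both, and the miR-92 arms, which share a seed, and miR-276a-3p stood above the larva in both.
let-7-5p: uGAGGUAGuagguuguauagua
miR-125-3p: aCAAGUUUugaucuccgguau
miR-10-3p: cAAAUUCGguucuagagagguuu
miR-305-3p: cGGCACAUguugaaguacacuca
miR-33-5p: gUGCAUUGuagucgcauuguc
miR-92a-3p: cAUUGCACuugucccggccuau
miR-92b-3p: aAUUGCACuagucccggccu
miR-276a-3p: uAGGAACUucauaccgugc
miR-1-3p: uGGAAUGUaaagaaguauggag
bantam-3p: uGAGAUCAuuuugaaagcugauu
miR-263a-5p: aAUGGCACuggaagaauucacggg

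Each of these 11 runs is also present in the D. melanogaster hairpin of the same name, as were the most-read sequences of all 38 arms that could be compared. Coordinates in the deposited alignments, whose genome build is not given in the sources used here, place the D. yakuba hairpin of miR-10 at chr3R:7778005-7778081 on the plus strand, that of miR-33 at chr3L:20771330-20771419 on the minus strand, and those of miR-305 and miR-275 beside each other at chr2L:5473629-5473701 and chr2L:5473787-5473876 on the minus strand. In the BDGP6 annotation of D. melanogaster, mir-125 lies in an exon of the noncoding let-7 complex transcript, mir-33 in an intron of the lipid regulator gene SREBP, mir-92a in an intron of jigr1, and mir-10 in an exon of a noncoding RNA.

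Reads on the 140 arms of the 80 D. yakuba hairpins numbered 21744 in prepupal library 1, 1423 in prepupal library 2 and 3731 in the larval library. Reads were found on 82 arms in prepupal library 1, 54 in prepupal library 2 and 58 in the larva, and 87 arms had a read in at least 1 library. A count of 0 allows a share of up to 0.0138% in prepupal library 1, 0.211% in prepupal library 2 and 0.0804% in the larva, taking 3 counts as the floor. The ratios below compare shares of each library's reads, with exact 95% intervals. These intervals and floors describe counting error alone, since no molecular identifiers mark the reads, and with 1 RNA per stage no test between the stages was possible from these libraries alone. In RNA of whole animals, fewer cells of a type and less RNA per cell cannot be told apart. The testis-rich miRNAs have no D. yakuba hairpin in the release used. On D. melanogaster hairpins they had 18, 0 and 8 reads in prepupal library 1, prepupal library 2 and the larva, spread over 3 arms. The series holds no D. yakuba female library to set these counts against, so they do not check the label male.

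The let-7 complex was read in both prepupal libraries and not in the larva. Its 6 arms together had 51 reads in prepupal library 1 and 15 in prepupal library 2, against 0 in the larva, or 0.234%, 1.05% and 0% of reads. Against the floor of 3 larval counts, the complex was at least 2.92-fold higher in prepupal library 1 and at least 13.1-fold higher in prepupal library 2 than in the larva, and the exact 95% lower limits, which also take in the counting error of the prepupal reads, were 2.29 and 9.40.

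Most of those reads came from 2 arms. let-7-5p, the mature form of the temporal regulator let-7, had 12 reads (0.0552%) in prepupal library 1 and 8 reads (0.562%) in prepupal library 2, against 0 in the larva. The share in prepupal library 1 lay under the larval floor, so a difference was not detectable there at this depth, whereas prepupal library 2 was at least 6.99-fold above it, with an exact lower limit of 4.48. miR-125-3p, the less used arm of miR-125 in most animals, had 34 reads (0.156%) in prepupal library 1 and 4 reads (0.281%) in prepupal library 2, against 0 in the larva, and was at least 1.945-fold and at least 3.50-fold higher, with exact lower limits of 1.497 and 1.73. All 38 of its reads were the single 21-nt form printed above. The usual guide arm miR-125-5p had 2 and 1 reads in the prepupal libraries, against 0 in the larva, and miR-100-5p had 1 and 0, against 0. let-7-5p was 10.2-fold apart (3.61 to 27.1) between the libraries of the one prepupal RNA, and miR-125-3p was 1.80-fold apart (0.463 to 5.04).

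**Figure D1:**
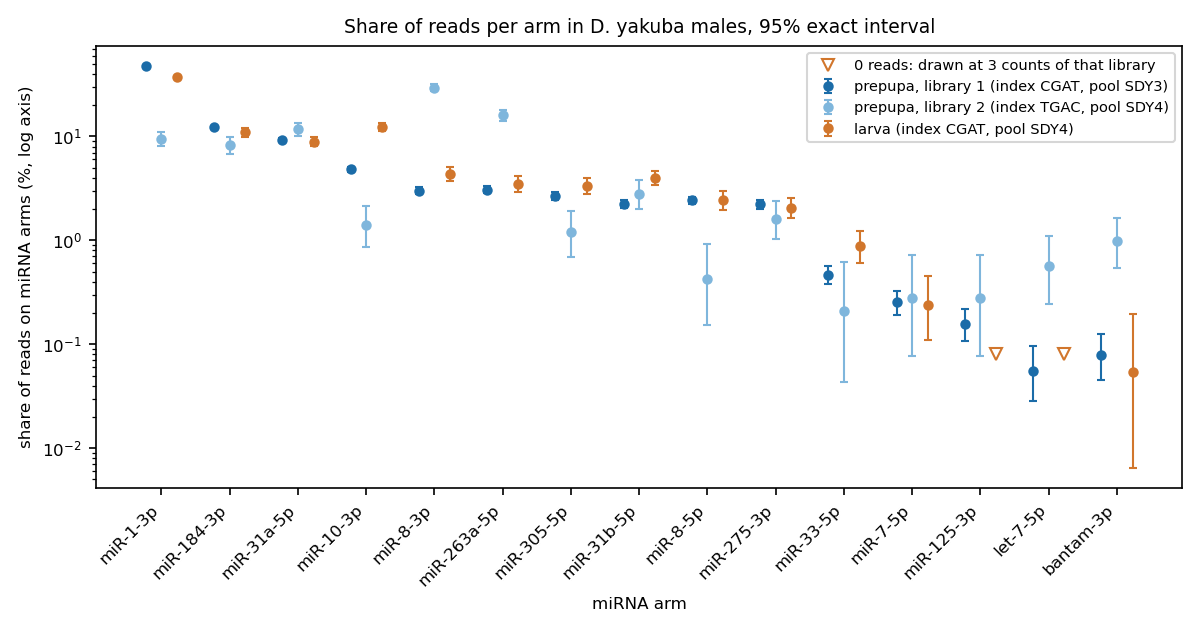
Share of reads on miRNA arms (%, log axis) for 15 arms in the 3 D. yakuba libraries, with prepupal libraries 1 and 2 left of the larva, points for shares, bars for exact 95% intervals and open triangles for counts of 0 drawn at 3 counts. miR-10-3p sits lower in both prepupal libraries (4.81% and 1.41%, against 12.3% in the larva), while miR-8-3p and miR-263a-5p lie far above the larva in prepupal library 2.

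Among the 39 arms with at least 20 reads over the 3 libraries, 1 arm was at least 2-fold higher in both prepupal libraries than in the larva (2.56% of arms) and 2 arms were at least 2-fold lower in both (5.13%). The split depends on the scaling. When shares were taken without the 3 arms with the most reads, 3 arms were higher (miR-305-3p, bantam-3p and miR-125-3p) and 0 lower, and with TMM-scaled shares 2 were higher (miR-305-3p and miR-125-3p) and 1 lower (miR-10-3p). Both prepupal ratios stood on the same side of 1 for 24 arms, on opposite sides for 11, and a count of 0 left 4 arms without a ratio.

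miR-10-3p was lower in both prepupal libraries. miR-10 lies in the Hox cluster and its targets include Hox genes. It had 1045 reads (4.81%) in prepupal library 1 and 20 reads (1.41%) in prepupal library 2, against 459 reads (12.3%) in the larva, where it was the second most abundant arm. The ratios to the larva were 0.391 (0.350 to 0.437) for prepupal library 1 and 0.114 (0.0691 to 0.179) for prepupal library 2. It was the single arm that passed the 2-fold rule with both intervals clear of 1. Without miR-1-3p, miR-184-3p and miR-31a-5p in the totals, its ratio for prepupal library 1 was 0.540, which is outside the 2-fold rule but still below 1. miR-iab-4-5p, the other Hox cluster arm with enough reads, had 31 reads in prepupal library 1 and 0 in prepupal library 2, against 5 in the larva, and its ratio in prepupal library 1 was 1.06 (0.410 to 3.50).

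The other 2 arms past the fold rest on few reads. miR-305-3p, the passenger arm of a miRNA that acts on intestinal stem cells in D. melanogaster, had 21 reads (0.0966%) in prepupal library 1 and 4 reads (0.281%) in prepupal library 2, against 1 read (0.0268%) in the larva. Its ratios were 3.60 (0.580 to 149.0) and 10.5 (1.04 to 516.5), so the interval for prepupal library 1 spans 1. miR-5-5p, a member of the cluster read mainly in early embryos, had 23 reads and 1 read in prepupal libraries 1 and 2, against 8 in the larva, with ratios of 0.493 (0.213 to 1.28) and 0.328 (0.00739 to 2.44). Its ratio for prepupal library 1 was 0.509 with TMM-scaled shares and 0.682 without the 3 most-read arms, outside the 2-fold rule in both. Just outside the threshold lay miR-311a-3p (ratios 0.515 and 0.375), miR-33-5p (0.525 and 0.238) and miR-9c-5p (0.530 and 0.477) on the lower side, and miR-125-3p on the higher side.

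Intervals clear of 1 on the same side in both libraries were found for 3 arms above the larva and 4 below it, by a criterion that ignores fold size. With TMM-scaled shares the counts were 3 and 3, with miR-305-5p lost. Without the 3 most-read arms in the totals they were 3 and 2, of which only miR-125-3p and miR-10-3p were among the 7. The others on that scaling were miR-263a-5p and miR-282-5p above and miR-31b-5p below. miR-276a-3p, linked to olfactory memory in D. melanogaster, had 348 reads (1.60%) and 34 reads (2.39%) in prepupal libraries 1 and 2, against 39 reads (1.05%) in the larva, or ratios of 1.53 (1.10 to 2.19) and 2.29 (1.40 to 3.72), the second of which was 1.40 (0.857 to 2.27) without the 3 most-read arms. miR-92b-3p had 246 reads (1.13%) and 21 reads (1.48%), against 27 reads (0.724%) in the larva, or 1.56 (1.05 to 2.42) and 2.04 (1.10 to 3.75), the second of which was 1.25 (0.671 to 2.29) on that scaling. These arms and miR-125-3p were the 3 above. miR-92a-3p, of the same seed and family, had 58 reads and 13 reads, against 8 in the larva, and its interval cleared 1 only in prepupal library 2 (4.26, 1.64 to 11.9), with 1.24 (0.591 to 3.02) in prepupal library 1.

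Below the larva stood miR-10-3p, miR-33-5p, miR-283-5p and miR-305-5p. miR-33-5p, whose host gene governs lipid synthesis, had 101 reads (0.465%) and 3 reads (0.211%) in prepupal libraries 1 and 2, against 33 reads (0.884%) in the larva, or ratios of 0.525 (0.351 to 0.803) and 0.238 (0.0468 to 0.760), the first of which was 0.726 (0.485 to 1.11) without the 3 most-read arms. miR-283-5p had 139 and 2 reads, against 37 in the larva, or 0.645 (0.446 to 0.953) and 0.142 (0.0166 to 0.549), the first of which was 0.891 (0.616 to 1.32) on that scaling. miR-305-5p had 582 reads (2.68%) and 17 reads (1.20%), against 124 reads (3.32%) in the larva, or 0.805 (0.662 to 0.986) and 0.360 (0.203 to 0.599), and its ratio for prepupal library 1 turned to 1.11 when the 3 most-read arms were left out of the totals. The miR-305 hairpin therefore had its 5p arm below and its 3p arm above the larva on the shares of all reads.

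**Figure D2:**
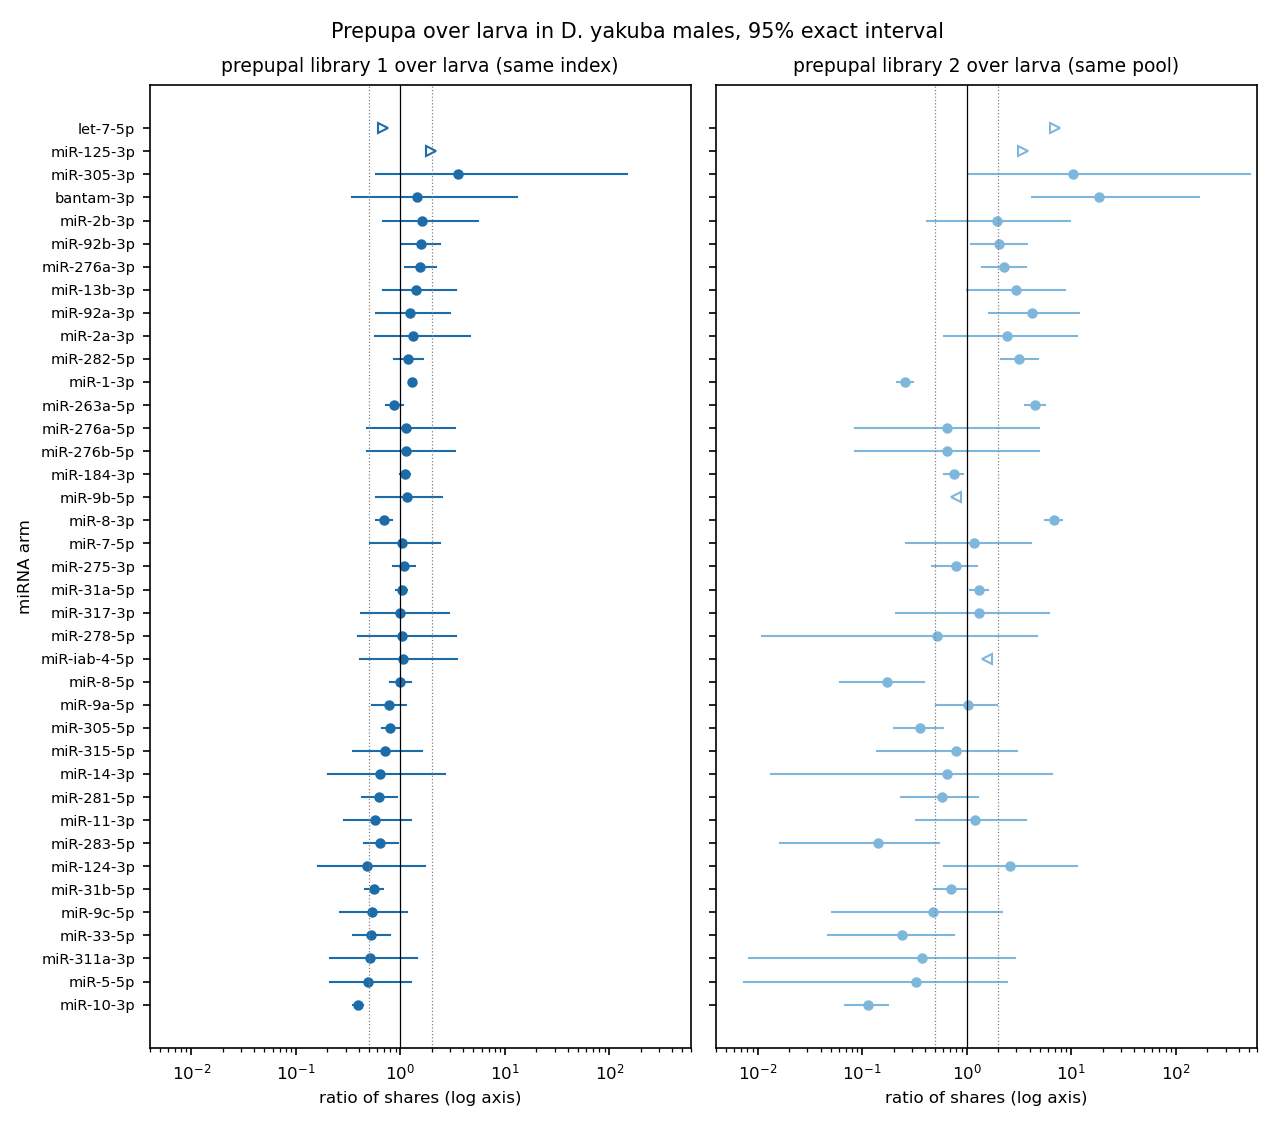
Ratio of read shares (log axis), prepupa over larva, for 39 arms in D. yakuba males, with prepupal library 1 on the left and prepupal library 2 on the right; points are ratios, lines exact 95% intervals, triangles ratios taken with a floor of 3 counts, and dotted lines 2-fold. Ratios for prepupal library 1 cluster near 1, with 33 of 37 within 2-fold, and those for prepupal library 2 spread widely, with 15 of 35 within 2-fold.

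The prepupal libraries gave different pictures of the same RNA. Against the larva, 1 arm was at least 2-fold higher (2.56%) and 3 at least 2-fold lower (7.69%) in prepupal library 1, whereas 13 were higher (33.3%) and 9 lower (23.1%) in prepupal library 2. The median log2 ratio was 0.04 for prepupal library 1 and −0.35 for prepupal library 2. Between the libraries themselves, prepupal library 2 over prepupal library 1, 10 arms were at least 2-fold higher (25.6%) and 6 at least 2-fold lower (15.4%), all from a single RNA. Index and pool both differ between them and cannot be told apart as a source of these differences. Depth differs too, at 1423 reads in prepupal library 2 against 21744 in prepupal library 1.

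miR-8-3p, a regulator of insulin signalling and growth in the fat body, was the arm with the most reads in prepupal library 2, at 420 reads (29.5%), and held 652 reads (2.999%) in prepupal library 1, against 162 reads (4.34%) in the larva. Its ratio to the larva was 0.691 (0.581 to 0.825) for prepupal library 1 and 6.80 (5.66 to 8.20) for prepupal library 2, on opposite sides of 1 with both intervals clear of it. Without the 3 most-read arms in the totals these ratios were 0.954 (0.802 to 1.14) and 4.16 (3.46 to 5.02), so that only prepupal library 2 stayed clear of 1. miR-263a-5p, which protects sensory bristle cells from death in D. melanogaster, had 668 reads (3.07%) and 227 reads (16.0%) in prepupal libraries 1 and 2, against 131 reads (3.51%) in the larva. Its ratios were 0.875 (0.725 to 1.06) and 4.54 (3.65 to 5.68). Without the 3 most-read arms in the totals they were 1.21 and 2.78, with both intervals clear above 1. bantam-3p, which promotes growth and blocks cell death, had 17 reads and 14 reads, against 2 in the larva, with ratios of 1.46 (0.346 to 13.02) and 18.4 (4.22 to 166.4), and its 5p arm had 7 and 0 reads, against 2.

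miR-1-3p, the muscle miRNA, moved the other way and was the arm with the most reads in prepupal library 1 and in the larva. It had 10300 reads (47.4%) in prepupal library 1 and 135 reads (9.49%) in prepupal library 2, against 1379 reads (37.0%) in the larva, or ratios of 1.28 (1.21 to 1.36) and 0.257 (0.213 to 0.306). The second muscle miRNA, miR-133-3p, had no read in any of the 3 libraries, and its 5p arm had 2, 0 and 2. miR-184-3p, needed in the D. melanogaster germline, had 2656 reads (12.2%) and 117 reads (8.22%), against 409 (10.96%) in the larva, or 1.11 (1.00 to 1.24) and 0.750 (0.605 to 0.923).

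miR-282-5p was higher in prepupal library 2. Without the 3 most-read arms in the totals, its intervals were clear above 1 in both prepupal libraries. It had 310 reads (1.43%) and 55 reads (3.87%) in prepupal libraries 1 and 2, against 45 reads (1.21%) in the larva, or ratios of 1.18 (0.863 to 1.65) and 3.205 (2.12 to 4.86), and its shares were 2.71-fold apart (1.997 to 3.62) between the prepupal libraries. miR-31a-5p, miR-275-3p and miR-31b-5p stayed within 2-fold of the larva in both libraries. miR-31a-5p had 1993 reads (9.17%) and 167 reads (11.7%), against 332 (8.90%) in the larva, or ratios of 1.03 (0.917 to 1.16) and 1.32 (1.09 to 1.59). miR-275-3p, the neighbour of miR-305, had 482 (2.22%) and 23 reads (1.62%), against 77 (2.06%), or 1.07 (0.843 to 1.39) and 0.783 (0.469 to 1.26). miR-31b-5p had 485 (2.23%) and 40 reads (2.81%), against 149 (3.99%). Its ratios were 0.558 (0.464 to 0.676) and 0.704 (0.484 to 1.00), so only the upper bound for prepupal library 2 reached 1. Without the 3 most-read arms in the totals, both intervals lay below 1. The 10 arms with the most reads together held 88.2% and 85.8% of reads in prepupal libraries 1 and 2, against 87.6% in the larva.

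**Figure D3:**
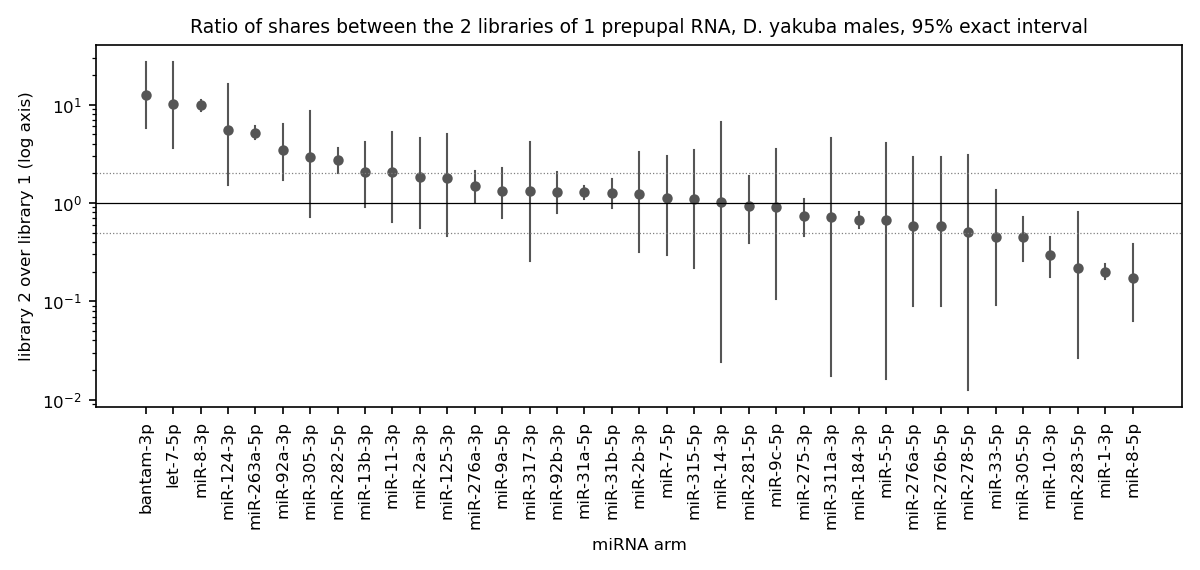
Ratio of shares, prepupal library 2 over prepupal library 1 (log axis), for arms with reads in both, ordered by ratio, with exact 95% intervals as lines and 2-fold as dotted lines. bantam-3p (12.6) and miR-8-3p (9.84) are at the high end and miR-8-5p (0.174) and miR-1-3p (0.200) at the low end, although both libraries were made from 1 RNA.

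Arms of the same hairpin did not always go together in prepupal library 2. miR-8-5p had 526 reads (2.42%) and 6 reads (0.422%) in prepupal libraries 1 and 2, against 91 reads (2.44%) in the larva, or ratios of 0.992 (0.793 to 1.25) and 0.173 (0.0618 to 0.391). The 5p share of miR-8 reads was 44.7% (41.8% to 47.5%) in prepupal library 1 and 1.41% (0.519% to 3.04%) in prepupal library 2, against 35.97% (30.05% to 42.2%) in the larva. Because prepupal library 1 stood above the larva and prepupal library 2 below it, miR-8 did not count as moved. Of the 12 hairpins with at least 20 reads in every library, 0 had a 5p share at least 10 percentage points from the larva in the same direction in both. miR-305 had a 5p share of 96.5% (94.7% to 97.8%) and 81.0% (58.1% to 94.5%) in prepupal libraries 1 and 2, against 99.2% (95.6% to 99.98%) in the larva.

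The 5′ ends of the miRNAs stayed the same by the measure used. Of the 11 arms with at least 20 reads in every library, none shifted by 10 percentage points in its most used start. The lowest share of reads at that start over the arms was 96.5% and 96.4% in prepupal libraries 1 and 2, against 96.0% in the larva. Among the arms printed here, the starts of 3 differ from the mature forms annotated in the release. miR-263a-5p began 3 bases into its annotated form in all but 1 of its reads, which moves its seed, and the starts of miR-282-5p and miR-33-5p lay 4 and 2 bases in. The pairs are shown to make the shift of the capitals visible.
miR-263a-5p, most read: aAUGGCACuggaagaauucacggg
miR-263a-5p, annotated: gUUAAUGGcacuggaagaauucac
miR-33-5p, most read: gUGCAUUGuagucgcauuguc
miR-33-5p, annotated: aGGUGCAUuguagucgcauug
miR-282-5p, most read: uAGCCUCUacuaggcuuugucu
miR-282-5p, annotated: aAUCUAGCcucuacuaggcuuugucugu

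Read lengths differed more. Reads of 22 nt made up 61.1% and 36.1% in prepupal libraries 1 and 2, against 55.9% in the larva, and reads of 23 nt made up 11.03% and 38.3%, against 20.7%. The arms themselves differ in length, since miR-1-3p was mostly 22 nt and miR-8-3p mostly 23 nt in every library. Within single arms a difference also appeared. Reads of miR-305-5p of 23 nt or more were 11 of 582 (1.89%, 0.947% to 3.36%) in prepupal library 1 and 8 of 17 (47.1%, 22.98% to 72.2%) in prepupal library 2, against 5 of 124 (4.03%, 1.32% to 9.16%) in the larva. The 3 forms below share the seed and differ in the 3′ end.
miR-305-5p, 19 nt: aUUGUACUucaucaggugc
miR-305-5p, 22 nt: aUUGUACUucaucaggugcucu
miR-305-5p, 24 nt: aUUGUACUucaucaggugcucugg

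The 19-nt form had 266 and 3 reads in prepupal libraries 1 and 2, against 52 in the larva, the 22-nt form 134 and 4, against 39, and the 24-nt form 7 and 8, against 3. miR-31b-5p had 24 of 485 reads of 23 nt or more (4.95%, 3.196% to 7.27%) in prepupal library 1 and 15 of 40 (37.5%, 22.7% to 54.2%) in prepupal library 2, against 24 of 149 (16.1%, 10.6% to 23.01%) in the larva. miR-276a-3p also differed, with 55 of 348 reads at 22 nt (15.8%, 12.1% to 20.1%) in prepupal library 1 and 33 of 34 (97.1%, 84.7% to 99.9%) in prepupal library 2, against 10 of 39 (25.6%, 13.04% to 42.1%) in the larva. Its 19-nt form, the most read over the 3 libraries and printed above, had 112 and 0 reads, against 14. In miR-263a-5p and miR-10-3p the shares of 23 nt or more were level, at 98.8% and 98.7%, against 98.5%, for miR-263a-5p and at 85.3% and 90%, against 86.7%, for miR-10-3p. Reads that began with C made up 8.02% and 3.65% in prepupal libraries 1 and 2, against 15.6% in the larva, and without miR-10-3p 3.39% and 2.28%, against 3.79%.

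**Figure D4:**
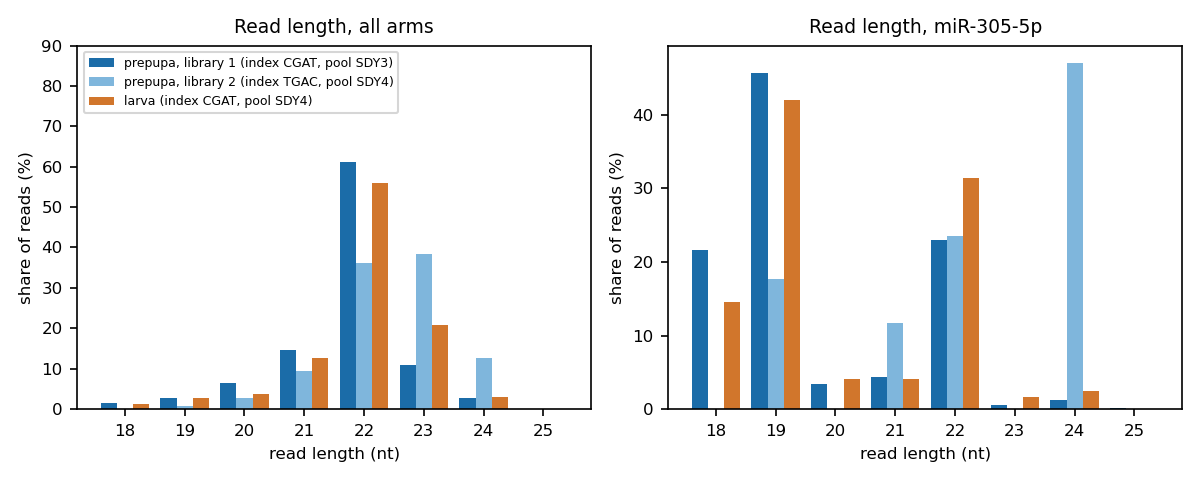
Share of reads (%) at each read length (nt) in prepupal library 1, prepupal library 2 and the larva, for all arms on the left and miR-305-5p on the right. Prepupal library 2 has more 23-nt reads (38.3%, against 20.7% in the larva) and its miR-305-5p reads peak at 24 nt (47.1%, against 2.42% in the larva).

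Tissue and pathway lists, chosen with earlier results of these data known, are described by counts and medians only. The median log2 ratio to the larva was 0.04 over 37 arms in prepupal library 1 and −0.35 over 35 arms in prepupal library 2. Medians leave out arms without a ratio because of a count of 0. Of all 39 arms, 22 and 19 were above 1, counting those with no larval read. In the growth and metabolism list, 8 of 13 tested arms were above the larva in prepupal library 1 and 4 in prepupal library 2, with medians of 0.10 and −0.61. The list of K box and Brd box miRNAs, regulators of Notch target genes, also takes in miR-7-5p and miR-5-5p. Its miR-2a-3p and miR-2b-3p share divided reads. Of its 6 tested arms, 4 and 5 were above 1, with medians of 0.24 and 0.61. These include miR-7-5p, which acts in eye and sense organ development, with 55 reads (0.253%) and 4 reads (0.281%), against 9 (0.241%) in the larva, or 1.05 (0.514 to 2.41) and 1.17 (0.262 to 4.18).

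In the imaginal disc and epithelium list, 5 of 9 arms were above 1 in each library, with medians of 0.04 and 0.12. In the nervous system list the count was 2 and 4 of 4, where all intervals spanned 1 except for miR-125-3p, with no larval read. The list's neuronal member miR-124-3p had 14 reads and 5 reads, against 5 in the larva. It was the single arm at least 2-fold from the larva in opposite directions, at 0.480 (0.163 to 1.70) and 2.62 (0.603 to 11.4). The digestive tract list had 2 of 5 arms above 1 in each library, with medians of −0.19 and −0.35. In the list of the miR-310 cluster and the miR-92 arms, 2 of 3 arms were above 1 in each. These were miR-92a-3p and miR-92b-3p, whose hairpins lie on chr3R. The cluster arm miR-311a-3p, on chr2R, was below 1 in both (0.515 and 0.375).

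Among the steroid-linked miRNAs, 2 and 3 of 5 tested arms were above 1, counting let-7-5p and miR-125-3p, which had no larval read and so no ratio, and of which let-7-5p in prepupal library 1 was not detectably above the larval floor. miR-14-3p, which tunes ecdysone receptor levels in D. melanogaster, had 15 reads and 1 read, against 4 in the larva, or ratios of 0.644 (0.205 to 2.66) and 0.656 (0.0133 to 6.62), and miR-14-5p had 0 and 3 reads, against 0. miR-34-5p, known for its part in ageing brains, fell short of the read minimum with 7 and 4 reads, against 4. At these counts a 2-fold difference was not detectable.

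Counting on D. melanogaster hairpins gave the same 3 arms past the 2-fold rule among 49 tested, with 1 higher and 2 lower. It added 43 arms that have reads but no D. yakuba hairpin of the same name. Among them is miR-311-3p, with 21 and 1 reads, against 7, the same counts as miR-311a-3p on D. yakuba hairpins. The 43 arms held 768 and 78 reads in prepupal libraries 1 and 2, against 176 in the larva. These were 3.42% and 5.20%, against 4.51%, of reads on D. melanogaster hairpins. miR-995-3p was the most read of the 43 arms, with 205 and 17 reads, against 39, or ratios of 0.911 (0.645 to 1.32) and 1.13 (0.601 to 2.05). miR-375-3p had 60 and 2 reads, against 19, or 0.547 (0.322 to 0.972) and 0.274 (0.0309 to 1.14).

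miR-999-3p stood apart among these arms. It had 6 reads in prepupal library 1 and 24 in prepupal library 2, against 0 in the larva. The share in prepupal library 1 lay under the larval floor. Prepupal library 2 was at least 20.8-fold above that floor of 3 counts, with an exact lower limit of 15.65. The libraries of the one prepupal RNA were themselves 59.99-fold apart (23.89 to 179.4) in this arm. miR-252-5p had 67 and 10 reads, against 10, or 1.16 (0.594 to 2.53) and 2.60 (0.971 to 6.96). Its interval spanned 1 in both.

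The stage difference was set against sample spread in edgeR's quasi-likelihood model. It fitted the 2 D. yakuba RNA samples, with the prepupal libraries summed, with the 4 D. melanogaster male RNA samples. The model assumes that the lone D. yakuba samples vary as those of D. melanogaster do. Prepupal library 1 made up most of the summed reads, at 21744 on D. yakuba hairpins, against 1423 in prepupal library 2. Of 51 arms tested, 0 passed an adjusted p of 0.05 (0%), 1 had an unadjusted p below 0.05 and DESeq2 called 0, with 0 at that unadjusted level. The one arm was miR-125-3p (unadjusted p = 0.046, adjusted p = 0.996). miR-10-3p had a log2 change of −0.97 ± 1.72 (SE, adjusted p = 0.996). The median fitted log2 change over all arms was 0.54, so that changes are relative to it, and it was 0.42 with RLE scaling and −0.10 without D. melanogaster male larva 1. The biological coefficient of variation was 0.71 with 2 residual degrees of freedom. Each SE given for the edgeR fits is the size of the log2 change divided by the square root of F. It is implied by the F test and was not estimated apart from it.

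In the same fit, the D. yakuba change was compared with the D. melanogaster change directly. Here again 0 of 51 arms passed (0%), 2 had an unadjusted p below 0.05 and DESeq2 called 0, with 2 at that level. miR-2b-5p had an unadjusted p of 0.0294 (adjusted p = 0.75). miR-7-5p, the other of these arms, differed by 5.42 ± 2.24 on the log2 scale (SE, adjusted p = 0.75), D. yakuba change minus D. melanogaster change. With the replicate number, which is the library pool in D. melanogaster, as a block, and both D. yakuba samples placed with number 1, 1 arm was called (1.96%), miR-7-5p, at 5.50 ± 0.52 (SE, adjusted p = 0.00597). Its adjusted p lay between 0.00597 and 0.998 over 13 alternatives, and 1 of them was below 0.05.

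The fit with the block left fewer residual degrees of freedom than the 2 of the fit without it, all from the D. melanogaster samples. Values by index stand beside the miR-7-5p result, and their part in it was not tested. miR-7-5p held 0.253% and 0.281% of reads in the D. yakuba prepupal libraries, against 0.241% in its larva. In D. melanogaster males it held 0.213% and 0.0356% in prepupae, both indexed TGAC, against 6.30% and 1.59% in larvae, both indexed ACTG. In D. simulans it held 0.0887% in the prepupal library indexed GACT and 2.38% in the prepupal library indexed ACTG, against 0.0665% in the larva indexed GACT. The 3 libraries with the index ACTG were thus the 3 highest of the 10 male libraries, and in D. melanogaster males index and stage cannot be told apart.

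Some D. yakuba values went with those of the other species, and others did not. let-7-5p held 0.564% and 0.914% in D. melanogaster male prepupae, against 0.00386% and 0.0106% in larvae, and 0.528% and 0.564% in the D. simulans prepupal libraries, against 0.111% in its larva. Every prepupal library was above every larval one in each of these species. The D. melanogaster males were 4 RNA samples. The D. simulans males were 3 libraries of 2 RNA samples, with both prepupal libraries made from the same RNA. miR-125-3p held 0.213% and 0.0831% in D. melanogaster prepupae, against 0% and 0.0317% in larvae, and 0.794% and 0.334% in D. simulans, against 0.0443%. miR-10-3p held 3.93% and 0.486% in D. melanogaster prepupae, against 13.8% and 6.14% in larvae. In D. simulans it held 2.22% and 4.39%, against 4.52%. Its prepupal shares were thus below the larval ones in all 3 species, but D. simulans prepupal library 2 was nearly level with its larva. The ratio of the summed D. simulans libraries was 0.576 (0.492 to 0.676).

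miR-33-5p was also below in every species, with 1.02% and 0.261% in D. melanogaster prepupae, against 5.71% and 2.07% in larvae, and 3.60% and 1.09% in D. simulans prepupae, against 5.14%. miR-8-3p was above in D. melanogaster, at 4.72% and 33.1%, against 0.683% and 2.68%, and in D. simulans it held 1.37% and 1.57%, against 1.11%, where the ratio of the summed libraries was 1.27 (0.941 to 1.74) and its interval spanned 1. In D. yakuba it was above in prepupal library 2 alone, the one library with the index TGAC that the D. melanogaster prepupae carried.

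For the whole set, 38 arms tested in D. yakuba were also on D. melanogaster hairpins. In D. melanogaster every male prepupal library was above every larval one for 10 of them (26.3%) and below for 8 (21.1%). Of the 14 arms above the larva in both D. yakuba libraries, counting let-7-5p and miR-125-3p with no larval read, 4 were above and 2 below in D. melanogaster and 8 overlapped. Of the 11 arms below it in both, 0 were above and 4 below, and 7 overlapped. In D. simulans, whose prepupal libraries were made from the same RNA, 36 arms could be compared, with 11 above (30.6%) and 9 below (25%). Of the 14 above in D. yakuba, 8 were above and 1 below there, and of 10 below, 2 were above and 5 below.

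**Figure D5:**
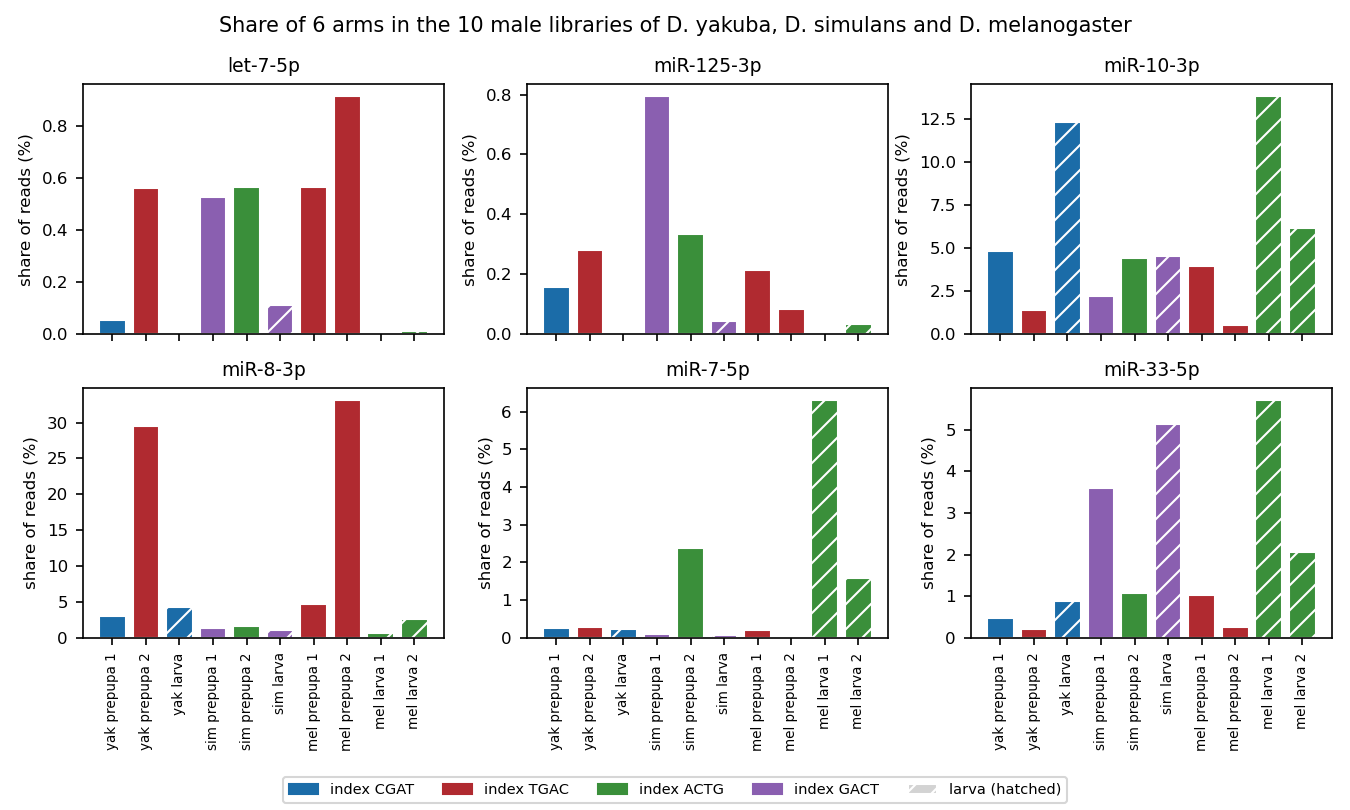
Share of reads (%) of 6 arms in the 10 male libraries of D. yakuba, D. simulans and D. melanogaster, with prepupae left of larvae in each species, larvae hatched and colours for the index; shares are of arms with a D. yakuba hairpin. miR-10-3p and miR-33-5p are lower in the prepupae of each species, while miR-8-3p is highest in 2 libraries with the index TGAC (29.5% and 33.1%) and miR-7-5p in those with the index ACTG. In D. simulans prepupal library 2, miR-10-3p is nearly level with the larva (4.39%, against 4.52%).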

How the data were processed

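Small RNA of whole animals had been size-selected, ligated to indexed adapters and sequenced, per the labels' protocols. Per the submitters' processing notes, Bowtie 0.12.5 was used, and per the file headers the authors aligned reads to miRNA hairpins of miRBase release 15. No genome build is named in the sources used here. The deposited summary table holds expected counts, with reads divided among matching loci. The deposited alignment texts list whole-number counts of each read sequence per library, not normalised. In the summary table, 8 columns of 4 libraries of other studies were not used.

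Reads were summed per mature arm from the alignment texts, a read listed for several miRNAs was divided evenly, and 5310 of 5334 summary cells lay within 1 read of these sums (99.55%). Arms with at least 20 reads over the 3 D. yakuba libraries were described, past the fold meaning at least 2-fold the same way in both prepupal libraries. Intervals are exact conditional or Clopper-Pearson at 95% (SciPy 1.17.1). edgeR 4.0.16 in R 4.3.3 used TMM, filterByExpr, rounded counts and Benjamini-Hochberg adjustment at 0.05, and DESeq2 1.42.0 was an alternative. The p-values of these fits set differences against the spread between D. melanogaster RNA samples, which the labels call different total RNA samples. No spread between D. yakuba RNA samples of a stage enters the main fit. Both scripts were tested on simulated data. The D. melanogaster replicate numbers go with the library pools in the labels. The deviations of number 1 from number 2 correlated between larvae and prepupae (r = 0.60 over 51 arms). A fit with the replicate number as block was added. It coded both D. yakuba samples as number 1, which is not the pool of their libraries. Arms were named if past the fold with both intervals clear, among the 10 highest shares, called, 2-fold opposite, up to 4 of each list by reads, or on a set list around let-7, miR-125, miR-100, miR-34, miR-14, miR-8, bantam, miR-7, miR-10, miR-1 and miR-133. miR-9c-5p, miR-999-3p, miR-283-5p, miR-305-3p, miR-311a-3p and the arms without a D. yakuba hairpin were named after their values were seen. The members and lists were chosen with earlier results of these data known. Alternatives were the hairpins, read minimum, fold, scaling, summary counts, divided reads, each library left out, no filter, and all 8 male RNA samples.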

Additional observations from a re-analysis of the deposited data

Results flagged for a closer look

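Reads with bases added at the 3′ end that the hairpin does not encode were counted separately and are not part of any comparison above. They are flagged because they form a signal outside the main measurement, above the 3 counts that a count of 0 allows. They numbered 411 in prepupal library 1 and 40 in prepupal library 2, against 83 in the larva, or 1.89 and 2.81, against 2.22, per 100 templated reads. Uracil made up 66.9% (62.1% to 71.4%) and 57.5% (40.9% to 73.0%) of the additions in prepupal libraries 1 and 2, against 67.5% (56.3% to 77.3%) in the larva, so the 3 shares had overlapping intervals.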

How the results depend on the processing

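The count of arms past the fold in both prepupal libraries, 3, was also 3 on D. melanogaster hairpins, with summary counts and with divided reads left out, each with the same 3 arms, and with at least 10 reads. It was 3 with TMM-scaled shares, of which 2 were shared (miR-125-3p in place of miR-5-5p), and 3 without the 3 most-read arms, of which 1 was shared (bantam-3p and miR-125-3p in place of miR-10-3p and miR-5-5p). It was 1 with at least 50 reads, 13 at a fold of 1.5 and 1 at a fold of 3, which follows from the thresholds. Leaving out one prepupal library gave 4 arms without prepupal library 2 and 22 without prepupal library 1. The 16 arms that differed 2-fold between the prepupal libraries were 10 at a fold of 3. Moved 5p shares numbered 0 to 2 with one library left out, 2 without prepupal library 1. The D. yakuba minus D. melanogaster contrast called 1 arm with the replicate block, against 0 without it, and the cause was not tested. The block changed no other call, and the other edgeR alternatives called 0. Of 229 ratios of 24 arms under 5 settings, 217 stayed inside the interval of the reported ratio, 12 lay outside and 0 past 2-fold changed side. Depth limits prepupal library 2 most, where 1 read is 0.0703% of the total. With 1 RNA per stage, differences between animals were not measured in D. yakuba.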
